A study of Mus musculus with 6 samples.

Results

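In primary mouse embryonic fibroblasts exposed to 1 mM hydrogen peroxide (H2O2), 99 genes gave a signal at most -0.9 on the log2 scale below untreated cells both at 2 h and at 4 h. They were chosen from 14937 genes whose probe was well above background on all 6 arrays. For each gene name the probe with the highest mean was used, and the values that chose the members were the group means of log2 signal minus the array's 75th percentile. In all, 107 genes met both thresholds, and the rule's left-out names removed 8 of them, 6 with names starting in Zfp and 2 others. Names were compared in the file's form and as current RefSeq symbols, and 3 of the 8 were left out through the current symbol alone, so the file's names by themselves would have left 102 members. The members were 19.1% of the 517 genes (the other 418 did not pass at 4 h) that passed at 2 h, and 24.1% of the 410 (the other 311 did not pass at 2 h) that passed at 4 h. The changes against untreated cells are therefore a description and carry no test. The rule set no order between 2 h and 4 h, and that difference was tested. The rule capped both values, however, so it limits that difference and shapes how many members are called.

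Fibroblasts were cultured in DMEM with serum, and RNA was measured at 0 h (untreated), after 2 h and after 4 h in H2O2, with 2 one-colour Agilent arrays from independent experiments in each of the 3 groups. The labels give no strain, embryo age or passage, and no arrays of cells kept without H2O2 for 2 h or 4 h were used here, so the agent and time in culture cannot be told apart. Replicate 1 of each group lay on slide 1 and replicate 2 on slide 2, and each time had a fixed place on the slide, so the effects of time and of place cannot be told apart. The 75th percentile of the signal ran from 674 to 883 over the 6 arrays, 57.3% to 68.0% of spots were well above background, no spot was saturated, and replicates correlated at 0.996 in each group. All 11 fibroblast markers examined, among them Col1a1, Vim and Pdgfrb, were well above background in untreated cells. Of the markers of other cell types, 3 of 6 endothelial, 5 of 6 leukocyte, 3 of 6 epithelial, 4 of 5 muscle and 3 of 5 neural ones were also well above background there. No member was among the markers examined. The log2 of the summed signal of the endothelial markers, a sum that the brightest markers dominate, ran from -1.12 to -0.88 in untreated cells, from -0.20 to -0.03 at 2 h and from -0.18 to -0.16 at 4 h, and that of the epithelial markers from 0.68 to 0.76, from 1.32 to 1.36 and from 1.25 to 1.41. The leukocyte markers ran from 1.19 to 1.29, from 1.42 to 1.49 and from 1.55 to 1.62, and the fibroblast markers from 10.2 to 10.3, from 10.5 to 10.6 and from 10.4 to 10.6. The muscle markers (4.73 to 5.14, 4.89 to 5.29 and 4.81 to 5.02) overlapped between groups, and the neural markers ran from 2.36 to 2.37, from 2.57 to 2.63 and from 2.32 to 2.41. The part of these markers in the results was not tested. In bulk RNA, fewer cells of a type and less RNA per cell cannot be told apart.

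A transcript's level is set by its synthesis and its decay, so when synthesis falls, short-lived messages disappear first and long-lived ones persist. Messages of signalling regulators, cell cycle genes and developmental transcription factors are known to be short-lived in many cells, whereas those of matrix and metabolic proteins often last for many hours. H2O2 enters cells, oxidises protein thiols and damages DNA, and it is known to act on growth factor signalling, the cell cycle and transcription.

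Promoter letters are shown for 3 of the members with a loss above 4-fold at 2 h and a called rise from 2 h to 4 h. Others with that pattern, Tube1 and Zmym1 among them, are not shown. Each is the 250 bases before a RefSeq start (GRCm38.p6), 5′ to 3′ on the gene's strand. Capitals mark the CCAAT box, which NF-Y binds and which reads ATTGG where it lies on the opposite strand. They also mark the forkhead motif GTAAACA, which FoxO factors bind.
Txnip: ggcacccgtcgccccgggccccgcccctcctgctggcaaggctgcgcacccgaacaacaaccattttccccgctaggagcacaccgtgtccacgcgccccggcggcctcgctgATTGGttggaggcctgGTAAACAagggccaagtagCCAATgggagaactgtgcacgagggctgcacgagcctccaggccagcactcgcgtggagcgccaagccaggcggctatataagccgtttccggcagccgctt
Spry1: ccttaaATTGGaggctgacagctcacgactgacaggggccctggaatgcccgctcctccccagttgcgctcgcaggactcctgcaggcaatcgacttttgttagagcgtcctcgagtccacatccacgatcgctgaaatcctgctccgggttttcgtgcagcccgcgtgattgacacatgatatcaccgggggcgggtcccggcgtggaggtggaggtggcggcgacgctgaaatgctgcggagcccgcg
Mterf2: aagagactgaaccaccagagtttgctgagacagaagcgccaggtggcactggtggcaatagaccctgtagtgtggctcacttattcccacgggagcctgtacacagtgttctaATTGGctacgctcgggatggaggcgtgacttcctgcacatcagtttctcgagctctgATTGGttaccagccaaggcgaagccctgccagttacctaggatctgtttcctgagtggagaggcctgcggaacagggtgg
The Txnip window is chr3:96557707-96557956 (plus strand), and it holds 2 CCAAT boxes, starting 137 and 102 bases before the start, with GTAAACA between them at 121. The Spry1 window is chr3:37639697-37639946 (plus strand), with 1 CCAAT box at its far end, 244 bases before the start. The Mterf2 window shown is chr10:85128016-85128265 (minus strand), with 2 CCAAT boxes at 137 and 80 bases before the start. Mterf2 has a further annotated start, with the window chr10:85128028-85128277, and the boxes lie 125 and 68 bases before that start. A match of letters is not a bound site.

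Over the 99 members the median change was -1.24 at 2 h and -1.19 at 4 h, beside 0.12 and 0.07 over the 17336 genes tested. At both times 64 members were at or below -1, which is a 2-fold loss, and 6 were at or below -1.5. On 95 members all 4 treated arrays lay below both untreated arrays, a pattern that 18.2% of genes well above background showed, and the rule used this contrast. The thresholds themselves were met by 0.716% of those genes. Just inside the threshold were Grap (-0.91 at 2 h and -0.90 at 4 h by the rule's means), Aspm (-0.91 and -0.92) and Traf5 (-0.91 and -0.94). Just outside it were Rpusd1 (-0.94 and -0.90), Peli3 (-1.43 and -0.90) and Dact1 (-1.09 and -0.88).

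**Figure D1:**
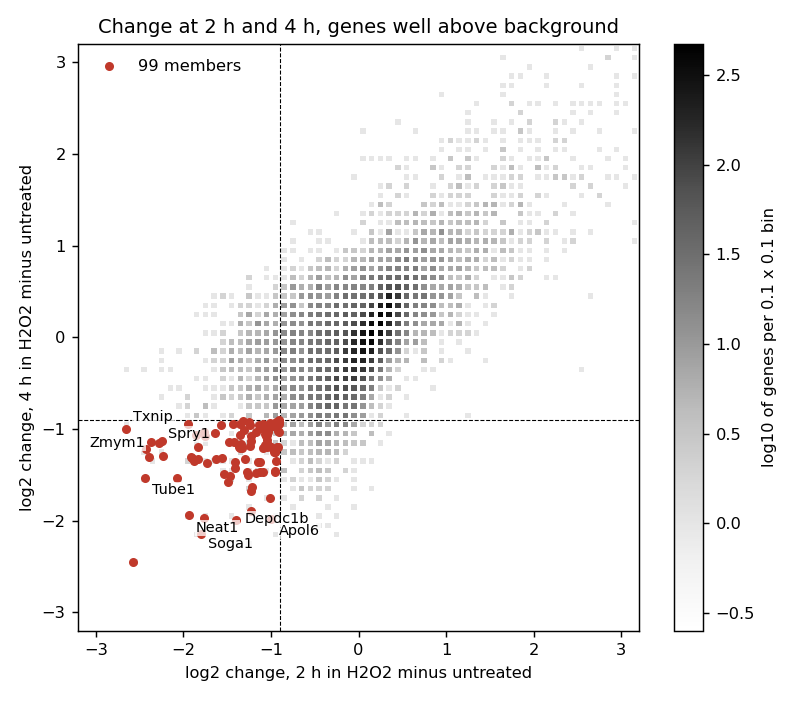
Log2 change at 2 h (horizontal axis) against log2 change at 4 h (vertical axis), both minus untreated; grey squares count the 14937 genes well above background on all 6 arrays in bins, red points are the 99 members, and dashed lines mark the threshold of -0.9. The axes stop at 3.2 on either side, and members fill the lower left corner, with Txnip at the 2 h extreme and Apol6 close to the 2 h threshold.

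Between 2 h and 4 h the members did not move together. Over the whole table, 13.4% of genes were called higher at 4 h than at 2 h and 16.4% were called lower (limma, Benjamini-Hochberg adjusted p under 0.05). Of the 99 members, 24 were higher at 4 h (24.2%), 9 were lower (9.09%) and 66 were not called, of all 99 members 46 having an unadjusted p under 0.05. The differences ran from -0.99 to 1.66, with a median of 0.04 beside -0.08 over all genes. The 24 that rose had a median of -1.85 at 2 h and -1.11 at 4 h. The 9 that fell had -1.01 and -1.76. The rule capped both values, so a member that rose had to lie below the cap at 2 h by at least that rise. A member that fell had to lie below the cap at 4 h by at least that fall. How low the 24 lay at 2 h and the 9 at 4 h therefore follows in part from the rule. Both 4 h arrays lay above both 2 h arrays for 38 members (26.9% of genes well above background did so) and below them for 30 (40.3%). With the slide as a block, 23 members were higher and 15 lower, beside 16.6% and 23.2% of all genes. The split depended on scaling. With no scaling 21 members were higher and 1 lower, beside 2250 genes (13%) and 1597 (9.21%) of all tested, and with scaling on spiked-in RNA 20 and 1, beside 11.8% and 4.64%. With normexp background correction 6 and 1 were called, beside 4.49% and 1.4%, which is near that background. With any 1 array left out, fewer members were called higher and fewer lower than in the main fit. The same held for the calls over all genes.

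**Figure D2:**
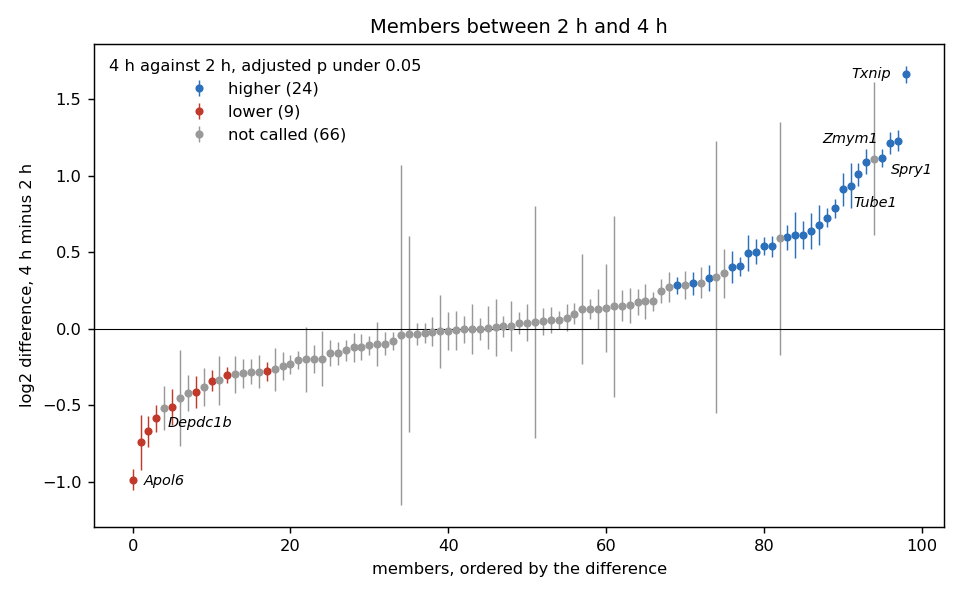
Log2 difference between 4 h and 2 h for each of the 99 members, ordered from lowest to highest; points are differences of 2 arrays per group and bars are standard errors from the fit across all genes. Blue marks the 24 members called higher at 4 h and red the 9 called lower; Txnip is at the top (1.66) and Apol6 at the bottom (-0.99).

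Of 31 members followed on every array, 17 were called between 2 h and 4 h, 10 higher and 7 lower. The calls of Zmym1, Spry1, Id4 and Apol6 held under each alternative setting tested, with the same direction within both slides. Zmym1, Spry1 and Apol6 had no further probe, so the mean of a gene's probes could not alter their calls. The further Id4 probe did not show the rise (-1.24 at 2 h and -1.44 at 4 h). The levels given below are log2 signals relative to the array's 75th percentile, so 0 is that percentile, and they are given as replicate 1 and then replicate 2. Changes carry a standard error (SE) from the fit, with n = 2 arrays per group.

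Members that act in growth factor and BMP signalling numbered 15, and 3 of them were called higher and 0 lower at 4 h than at 2 h. Such counts, here and for the groups below, stand beside 13.4% and 16.4% of all genes and were not tested against them. Spry1, an inhibitor of receptor tyrosine kinase signalling that is itself induced by that signalling, stood at 3.06 and 2.97 in untreated cells, 0.74 and 0.74 at 2 h, and 1.85 and 1.87 at 4 h. Every treated array lay below the untreated pair, and the 4 h pair lay above the 2 h pair. Its change was -2.27 ± 0.06 (SE) at 2 h, a 4.84-fold loss, and -1.16 ± 0.06 at 4 h, and the rise of 1.12 from 2 h to 4 h passed the test (limma adjusted p = 0.00176). Nuak1, a kinase related to AMP-activated kinase, read 3.43 and 3.44, then 1.52 and 1.6 at 2 h and 2.08 and 2.11 at 4 h. It too rose between the treated times, by 0.54 ± 0.06 (adjusted p = 0.0054), and stayed below both untreated arrays. With normexp correction that rise was 0.44 and was not called (adjusted p = 0.0787). A further Nuak1 probe well above background on every array gave -1.89 and -1.21 beside -1.88 and -1.34 on the brightest.

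The BMP branch held a ligand, an inhibitor and a target. Bmp4, a secreted ligand of the pathway, read 1.67 and 1.68 in untreated cells, 0.72 and 0.55 at 2 h, and 0.49 and 0.46 at 4 h. Its change was -1.04 ± 0.08 at 2 h and -1.20 ± 0.08 at 4 h, and the treated groups differed by -0.16 (adjusted p = 0.189). Smad6, an inhibitory Smad that BMP signalling induces, read 1.23 and 1.08, then 0.30 and 0.10, then -0.01 and -0.16. The 4 h pair lay below the 2 h pair, with a difference of -0.28 that was not called (adjusted p = 0.124) but was called with the slide as a block (adjusted p = 0.0171). Id4, an inhibitor of basic helix-loop-helix factors and a BMP target, read 2.36 and 2.29, then 0.43 and 0.51 at 2 h and 1.27 and 1.24 at 4 h. On this probe Id4 rose by 0.79 ± 0.06 from 2 h to 4 h (adjusted p = 0.00294), whereas a further Id4 probe gave -1.24 at 2 h and -1.44 at 4 h, so its probes share the loss and differ on the later rise.

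Among the 27 genes tested of a TGF-beta and BMP list, 5 were higher and 8 lower at 2 h, and 3 were higher and 10 lower at 4 h, where 23.7% and 15.3% of all genes were called higher and lower at 2 h and 24.6% and 18.4% at 4 h. Of the 27, 3 are members (Bmp4, Id4 and Smad6), which the rule took because they were low. The list counts below likewise include the members of each list. The balance over all genes turned with the scaling: 4105 were higher and 2658 lower at 2 h, against 2626 and 3253 after quantile normalization. Centring on the median gave 1827 and 3883, leaving the arrays unscaled 1541 and 5740, and scaling on spiked-in RNA 1378 and 5041. At 4 h the 4262 higher and 3186 lower became, in the same order, 3303 and 3820, 2183 and 4262, 1776 and 5488, and 1528 and 4048. With no scaling the list's counts were 1 and 12 at 2 h and 1 and 11 at 4 h. The counts with no scaling, here and for the lists below, stand beside 8.89% of all genes higher and 33.1% lower at 2 h and 10.2% and 31.7% at 4 h at that setting. Its median was -0.05 at 2 h and -0.20 at 4 h. Bambi, a decoy receptor of the pathway that the rule did not take, fell by 0.97 at 2 h (adjusted p = 0.0008) and by 0.86 at 4 h (adjusted p = 0.0011). Of the 23 genes tested of a receptor tyrosine kinase and PI3K list, 4 were higher and 7 lower at 2 h and 1 was higher and 11 lower at 4 h (1 and 14, and 1 and 13, with no scaling), with medians of -0.19 and -0.16. Irs1, the adaptor of insulin and IGF receptors, fell by 1.46 at 2 h and by 0.43 at 4 h (adjusted p = 0.0004 and 0.0105). Pdgfra, a PDGF receptor of fibroblasts, fell by 1.08 and by 0.70 (adjusted p = 0.0011 and 0.0036).

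Endothelin 1 (Edn1), a secreted vasoactive peptide, had a dim probe that read -2.47 and -2.42, then -4.10 and -3.88 at 2 h and -3.93 and -3.95 at 4 h. The treated pairs overlapped each other and lay well below the untreated pair (-1.54 ± 0.09 and -1.49 ± 0.09). Prickle1, a planar cell polarity protein, changed by -1.24 at 2 h and -0.96 at 4 h. The diacylglycerol kinase Dgke changed by -1.0 and -0.94, the retinoic acid receptor Rara by -0.97 and -0.96, the signalling adaptor Traf5 by -0.91 and -0.94, Tnfaip8l1 by -0.92 and -1.20, Rapgefl1 by -1.07 and -1.18, and Gprc5c, an orphan receptor, by -0.96 and -1.26. None of these was called between the treated times, with differences from -0.30 to 0.29.

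Developmental transcription factors numbered 6, and 1 of them was called higher and 0 lower at 4 h than at 2 h. Hoxa2, which patterns the hindbrain and the second branchial arch, read -2.43 and -2.25 in untreated cells, -3.65 and -3.45 at 2 h, and -4.07 and -3.87 at 4 h. The 3 pairs did not overlap, and the difference of -0.42 between treated times was not called (adjusted p = 0.0595) but was called with the slide as a block (adjusted p = 0.00772). Meox2, a mesoderm homeobox factor, changed by -1.12 and -1.35, and a further probe gave -1.24 and -1.43. Foxd1, a forkhead factor of stromal cells, changed by -1.05 and -1.08, and its further probe gave -0.93 and -0.99. Tbx5, known for its part in forelimb and heart, changed by -1.01 and -0.93. Alx1, a homeobox factor of craniofacial mesenchyme, changed by -1.44 and -0.94 and was the only factor of the 6 called higher at 4 h (adjusted p = 0.0364, and 0.0523 with the slide as a block), on a dim probe.

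Of the 35 Hox genes tested, 1 was higher and 11 were lower at 2 h, and 2 were higher and 16 lower at 4 h (0 and 20 at both times with no scaling). Their median was -0.28 at 2 h and -0.41 at 4 h, and with normexp correction it was -0.08 and 0.12, so the sign at 4 h rests on the background correction. Among Hox genes that are no members, Hoxd4 fell by 1.58 at 2 h and by 0.63 at 4 h, Hoxa10 fell by 0.84 and by 1.10, and Hoxa9 fell by 1.09 and by 0.47, with adjusted p between 0.0008 and 0.0191.

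Mitosis and centrosome genes numbered 9, and 3 of them were higher and 1 was lower at 4 h than at 2 h. Tube1, epsilon-tubulin of the centriole, read -0.72 and -0.78 in untreated cells, -3.25 and -3.14 at 2 h, and -2.41 and -2.15 at 4 h. The 2 h loss was 5.44-fold (-2.44 ± 0.11), and the rise of 0.91 to 4 h passed the test (adjusted p = 0.00651). With normexp correction that rise was 0.81 and was not called (adjusted p = 0.0987). Haspin, the kinase that phosphorylates histone H3 in mitosis, read -0.25 and -0.34, then -2.05 and -2.2, then -1.57 and -1.67. Its 4 h pair lay above its 2 h pair by 0.50 ± 0.08 (adjusted p = 0.0144). That call ended without 2 h replicate 2 or 4 h replicate 1, and also with normexp correction (adjusted p = 0.0719). Depdc1b, a cell cycle regulated protein, went the other way and read 0.48 and 0.42, then -0.98 and -0.93 at 2 h, then -1.64 and -1.44 at 4 h. Its difference of -0.59 ± 0.09 passed the test (adjusted p = 0.011) and did not with no scaling (adjusted p = 0.0582) or without 2 h replicate 1 or 2 (adjusted p = 0.057 and 0.0634).

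Of the other mitotic members, those named here changed by -1.35 to -0.91 at 2 h and by -1.36 to -0.91 at 4 h. Bora, an activator of Aurora A, changed by -1.15 and -1.36, and a further probe gave -1.11 and -1.84. Cenpl, a centromere protein, changed by -1.35 and -1.17 with -1.40 and -1.12 on a further probe. Poc5, a centriole protein, changed by -1.33 and -1.20. Aspm, a spindle pole protein, changed by -0.91 and -0.92, and its 4 h arrays were far apart (-1.57 and -0.88). Cdca2 (Repo-Man, which targets a phosphatase to chromatin) changed by -1.32 and -0.91 on the brightest probe, a called rise of 0.41, by -0.95 and -1.10 on a further probe and by 0.21 and 0.32 on another, so its probes disagree. Of the 56 centrosome and cilium genes tested, 5 were higher and 12 lower at 2 h, and 2 were higher and 34 lower at 4 h (0 and 33, and 1 and 42, with no scaling), with medians of -0.12 and -0.39. Tubd1, delta-tubulin, which the rule did not take, fell by 0.28 at 2 h and by 1.8 at 4 h (adjusted p = 0.0182 and 0.0002), a time course unlike that of Tube1.

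DNA repair members were 3. Xrcc2, a gene of homologous recombination, read -2.23 and -2.17, then -3.68 and -3.55, then -3.23 and -3.45. All treated arrays lay below the untreated ones (-1.42 ± 0.10 and -1.14 ± 0.10), the difference of 0.28 was not called (adjusted p = 0.103), and a further probe gave -1.31 and -0.65. With the mean over its probes the difference was 0.49 and was called (adjusted p = 0.0141). Eme1, a subunit of a structure-specific endonuclease, read -1.42 and -2.27 in untreated cells, -3.09 and -3.06 at 2 h, and -3.33 and -3.72 at 4 h. Its untreated arrays lay far apart, and its changes were -1.23 ± 0.31 and -1.68 ± 0.31. Fignl1, an AAA ATPase, changed by -1.24 and -1.18, and its further probe by -1.27 and -1.03. Of 67 DNA repair genes tested, 5 were higher and 27 lower at 2 h, and 7 were higher and 37 lower at 4 h (1 and 47, and 5 and 49, with no scaling), with medians of -0.17 and -0.39. Neil3, a DNA glycosylase outside the set, fell by 0.48 at 2 h and by 1.94 at 4 h (adjusted p = 0.0073 and 0.0003), and Rad54l, a recombination helicase, fell by 0.45 and by 1.59 (adjusted p = 0.0098 and 0.0005).

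Chromatin and RNA members numbered 7. Neat1, the long noncoding RNA that builds nuclear paraspeckles, read 3.99 and 3.88 in untreated cells, 2.07 and 1.94 at 2 h, and 2.07 and 1.92 at 4 h. The treated pairs overlapped fully, the loss was 3.83-fold at 2 h and 3.84-fold at 4 h, and the difference between them was -0.003 ± 0.089 (adjusted p = 0.984). Zmym1, a zinc finger protein of the MYM type, read 0.53 and 0.66, then -1.76 and -1.79 at 2 h and -0.58 and -0.52 at 4 h. Its 2 h loss was 5.17-fold, and it rose by 1.23 ± 0.07 to 4 h (adjusted p = 0.00189) while staying below both untreated arrays. Ints6l, related to a subunit of the Integrator complex, read 1.18 and 1.12, then -0.32 and -0.35, then -0.36 and -0.50, and its difference of -0.10 between treated times was not called (adjusted p = 0.375). With the mean over all of its probes that difference was 0.73 and was called, the other probes being dim.

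Prmt6, an arginine methyltransferase of histones, read -0.41 and -0.34, then -1.62 and -1.66, then -1.73 and -1.94. A further probe gave -1.21 and -1.20, while another gave 0.70 and 1.08, so the gene's probes disagree in sign. L3mbtl2, a Polycomb group protein, changed by -1.31 and -1.01, Wdr5b, a paralogue of a histone methyltransferase subunit, by -1.09 and -1.21, and the linker histone gene H1f5 by -1.09 and -1.47. Histone genes have near-identical copies, so that probe may read more than this gene. Of 87 histone and DNA modifying enzymes tested, 8 were higher and 27 lower at 2 h and 9 were higher and 21 lower at 4 h (1 and 48, and 2 and 43, with no scaling), with a median of -0.06 at both times. Dnmt3b, a de novo DNA methyltransferase, fell by 1.98 at 2 h (adjusted p = 0.0042), and its 4 h value of -0.61 was not called (adjusted p = 0.0956). Of 82 general transcription factors and Mediator genes tested, 9 were higher and 20 lower at 2 h and 7 were higher and 21 lower at 4 h (1 and 44, and 3 and 42, with no scaling), with medians of -0.06 and -0.13. Taf5, a TFIID subunit, fell by 1.42 at 2 h (adjusted p = 0.0003), with -0.16 at 4 h (adjusted p = 0.085).

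Members of the actin and adhesion group numbered 12, with 3 higher and 2 lower at 4 h than at 2 h. Cdc42ep3, an effector of Cdc42, read 2.05 and 2.18, then 0.43 and 0.53, then 1.02 and 1.13. It rose by 0.60 ± 0.08 between the treated times (adjusted p = 0.00981). The call ended without 2 h replicate 1, and also with normexp correction (adjusted p = 0.0625). Nedd9, a scaffold of focal adhesions, read 0.55 and 0.63, then -1.08 and -0.87, then -0.36 and -0.37. Its rise of 0.61 ± 0.09 was called (adjusted p = 0.0106), but not without 4 h replicate 1 or 2 (adjusted p = 0.051 and 0.0529), and a further probe gave the same course (-1.58 and -0.95). Ankrd1, a muscle ankyrin repeat protein and a target of YAP, read 0.45 and 0.46, then -0.73 and -0.70, then -1.02 and -1.02. Its fall of 0.30 from 2 h to 4 h was called (adjusted p = 0.0157), although every replicate left out in the treated groups ended the call. Median centring, no scaling, spike-in scaling and normexp correction also ended it (adjusted p = 0.0581, 0.147, 0.541 and 0.382). Lmcd1, a LIM domain protein, read 0.28 and 0.42, then -0.61 and -0.57, then -1.12 and -0.89, a further fall of 0.41 (adjusted p = 0.0428). That call ended without either untreated replicate, without either 2 h replicate and without 4 h replicate 1. No scaling, spike-in scaling and normexp correction ended it too (adjusted p = 0.217, 0.392 and 0.241).

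Egflam, pikachurin of the extracellular matrix, read -1.15 and -1.76 in untreated cells, -3.17 and -3.28 at 2 h and -3.45 and -3.41 at 4 h. Its 4 h pair lay below its 2 h pair by 0.20, within the error of 0.21 (adjusted p = 0.533). Arhgap20 read 0.29 and 0.27, then -0.89 and -1.02, then -0.87 and -0.84. The 4 h pair lay just above the 2 h pair (difference 0.10, adjusted p = 0.327), and a further probe gave -1.60 and -1.53. Kank1, which links focal adhesions to microtubules, changed by -1.03 and -1.03, Lurap1l by -1.35 and -1.07 with a called rise of 0.28, and Sh3bp4, an endocytic adaptor, by -0.94 and -0.92. Lrch1 changed by -1.14 and -0.96, and its further probe by -0.23 and -0.15.

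**Figure D3:**
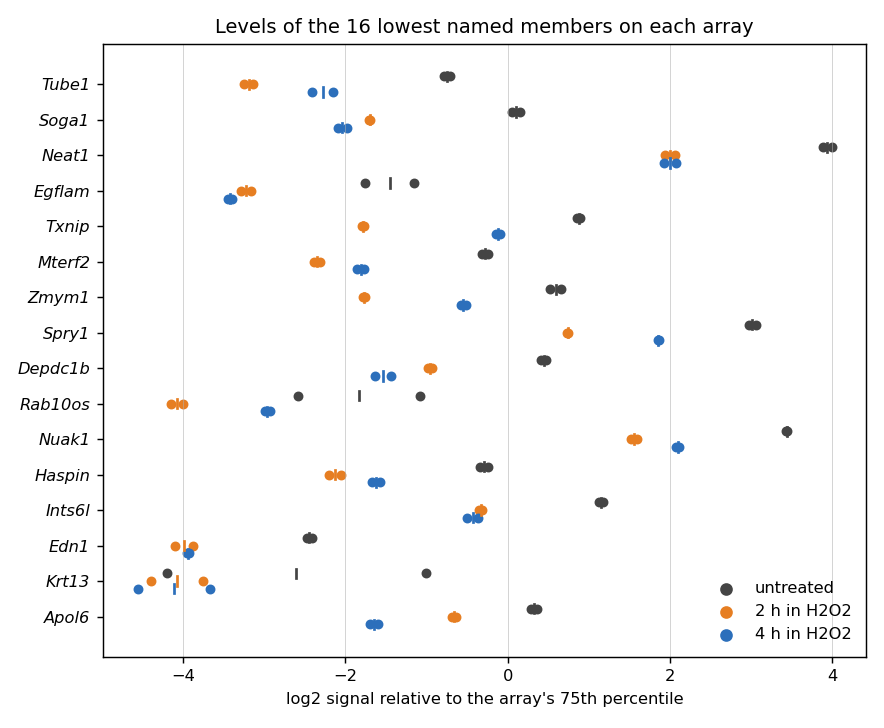
Log2 signal relative to the array's 75th percentile for the 16 members with a gene symbol that had the lowest mean of both changes; each point is an array, and the short line is the mean of the pair. Treated pairs lie left of untreated pairs except for Krt13, where the untreated arrays are far apart (-1.01 and -4.20) and the lower of them lies among the treated arrays.

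Metabolism and mitochondria members numbered 8. Txnip, which binds thioredoxin and restrains glucose uptake, read 0.86 and 0.89 in untreated cells, -1.79 and -1.77 at 2 h, and -0.15 and -0.09 at 4 h. At 2 h it had the lowest change of all members, a 6.31-fold loss (-2.66 ± 0.05), and at 4 h a 1.99-fold loss. The rise of 1.66 ± 0.05 between them was the largest among the members (adjusted p = 0.00163), and with the mean over its probes it was 1.20 and not called (adjusted p = 0.086). Its further probe, well above background on both untreated arrays but not on all 6, gave -2.11 and -1.38. Mterf2, a mitochondrial transcription terminator family protein, read -0.32 and -0.24, then -2.31 and -2.39, then -1.86 and -1.77. It lost 4.2-fold at 2 h and rose by 0.54 ± 0.07 to 4 h (adjusted p = 0.00756). With normexp correction that rise was 0.59 and was not called (adjusted p = 0.152). Slc25a29, a mitochondrial carrier of basic amino acids, read -1.03 and -1.08, then -2.10 and -2.15, then -2.05 and -2.17, with treated pairs that overlapped (difference 0.02, adjusted p = 0.882).

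Gba2, the non-lysosomal glucosylceramidase, changed by -1.37 and -1.20, Chst15, a chondroitin sulfotransferase, by -1.26 and -1.5, Adck2 by -1.03 and -0.99, and Ehhadh, a peroxisomal beta-oxidation enzyme, by -1.05 and -1.07. Hdhd5 changed by -0.91 and -1.03. Txnip is a known FoxO target and an arrestin domain gene. The counts of both lists below include it, and the rule took it because it was low. Of 19 FoxO targets tested, 3 were higher and 10 lower at 2 h and 6 were higher and 7 lower at 4 h (2 and 11, and 3 and 9, with no scaling), with medians of -0.29 and -0.06 (0.08 at 4 h with normexp correction). Fbxo32, a muscle ubiquitin ligase, fell by 1.54 at 2 h (adjusted p = 0.0059), with -0.37 at 4 h (adjusted p = 0.208). Ccng2, an atypical cyclin, fell by 0.87 at 2 h and rose by 0.34 at 4 h (adjusted p = 0.0011 and 0.0143). Of 5 arrestin domain genes tested, 0 were higher and 1 lower at 2 h and 1 was higher and 2 lower at 4 h (0 and 4, and 0 and 3, with no scaling; median -0.22 and -0.05, and 0.18 at 4 h with normexp correction), and Arrdc4 fell by 0.75 at 4 h (adjusted p = 0.0012) with -0.02 at 2 h. Of 261 solute carriers tested, 70 were higher and 20 lower at 2 h and 75 were higher and 40 lower at 4 h, with medians of 0.13 and 0.09 that turned to -0.21 and -0.17 with no scaling (31 and 73 calls, and 43 and 89).

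The remaining group with a role, ubiquitin ligase adaptors, traffic and cilium, numbered 6. Apol6, of the apolipoprotein L family, read 0.37 and 0.29 in untreated cells, -0.64 and -0.69 at 2 h, and -1.60 and -1.70 at 4 h. Its pairs were stepwise lower with no overlap, from a 1.99-fold loss at 2 h to a 3.94-fold loss at 4 h, and the further fall of 0.99 ± 0.07 was the largest among the members (adjusted p = 0.00229). Ttc30b, of intraflagellar transport, changed by -1.56 and -1.32 with -1.65 and -1.40 on a further probe. Dcaf17, a cullin 4 ligase adaptor, changed by -1.03 and -1.17, and Atg16l2, an autophagy gene paralogue, by -1.12 and -0.98. Arfgap1, a coat protein regulator of the Golgi, changed by -1.03 and -1.19 with -0.78 and -0.85 on a further probe and -0.17 and 0.38 on another. Spg20 (spartin) changed by -1.25 and -0.92, a called rise of 0.33, but its further bright probe gave -0.12 and -0.40.

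Among 33 members with no role given here, 28 carry only clone, accession or numbered names. The one listed as LOC675757, singled out after its values were seen, changed by -2.58 ± 0.36 at 2 h and by -2.45 ± 0.36 at 4 h, the lowest 4 h value in the set. Soga1, a glucose metabolism and autophagy related gene, read 0.05 and 0.15, then -1.70 and -1.70, then -1.99 and -2.10. A loss of 3.49-fold at 2 h became 4.42-fold at 4 h. The step of -0.34 was called (adjusted p = 0.0258), though not without either replicate of 2 h or 4 h. Median centring, no scaling, spike-in scaling and normexp correction also ended the call (adjusted p from 0.0768 to 0.984). A further Soga1 probe gave -0.93 and -0.76. Ccdc116 read -2.73 and -2.62, then -3.76 and -3.48, then -4.07 and -4.20. The step of -0.51 was called (adjusted p = 0.035) and lost without any 1 of the arrays except 2 h replicate 1. No scaling, spike-in scaling and normexp correction also ended the call. A further Ccdc116 probe was higher after H2O2 (0.66 and 0.73). Vstm5, a membrane protein of neurons, read -2.43 and -2.43, then -3.41 and -3.38, then -3.62 and -3.73. Its step of -0.28 (adjusted p = 0.032) was lost without any 1 of the 6 arrays, with each other scaling and with normexp correction. Rab10os, an antisense transcript, read -1.08 and -2.59 in untreated cells, then -4.00 and -4.15, then -2.93 and -3.0, so its changes of -2.24 ± 0.50 and -1.13 ± 0.50 had wide errors. Its difference of 1.11 between treated times was not called (adjusted p = 0.17), but it was without either untreated replicate and in a fit of the 2 treated groups alone (adjusted p = 0.00905 in each, since all take their spread from the treated arrays alone). Dusp27, an atypical phosphatase gene, changed by -1.41 and -1.43 on a dim probe.

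The chosen probe is not the only one for many members. For 23 members, 26 further probes were well above background on all 6 arrays. Of these, 14 (53.8%) were also at or below -0.9 at both times, beside 0.472% of 7202 such probes of other genes, and 20 lay below 0 at both times. Their medians were -1.05 and -0.97. The contrast is the one the rule used, on the same RNA, so these counts carry no test. Probes above 0 at either time belonged to Prmt6, Cdca2, Arfgap1, Ccdc116, 4930523C07Rik (1.53 and 0.90) and 9530091C08Rik (0.05 and -0.28). The Riken names 2810465G24Rik and 1110003O08Rik are listed in RefSeq as older names of Ncapd2 and Fbxo31, which have probes of their own on the array, so they were kept under the file's names.

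**Figure D4:**
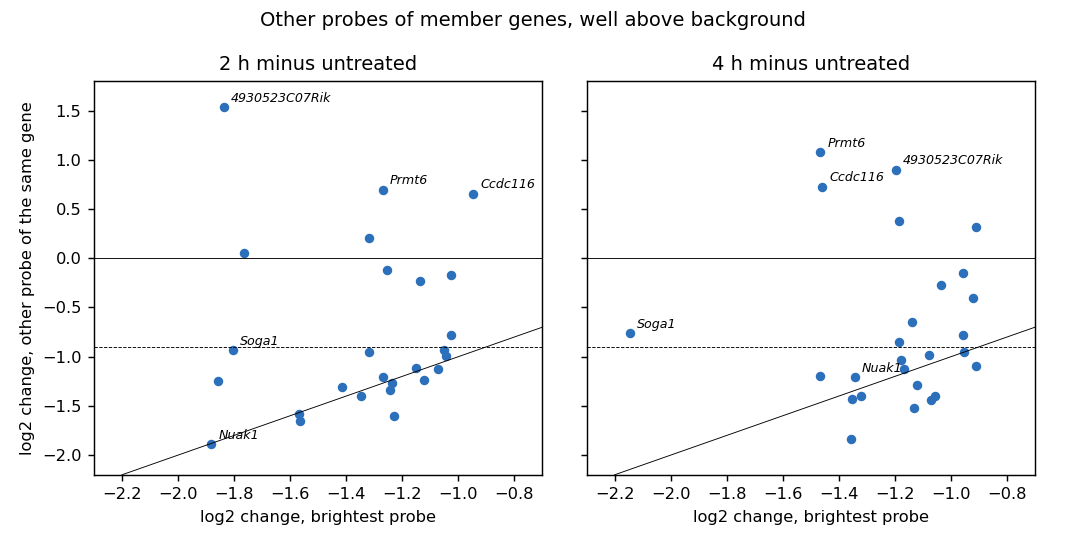
Log2 change of 26 further probes (vertical axis) against that of the member's brightest probe (horizontal axis), at 2 h on the left and 4 h on the right; the diagonal is equality and the dashed line is -0.9. Most points follow the diagonal, while 1 probe each of Prmt6, Cdca2, Ccdc116 and 4930523C07Rik lies above 0 at both times.

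Probe brightness set how firmly single members can be read. The mean untreated level was above the array's 75th percentile for 35 members and below -2 for 33, and the median standard error of a change was 0.07 for the former and 0.13 for the latter. Within each slide, 65 members were at or below -0.9 at both times, and of these 20 were higher and 7 lower at 4 h. Over all genes 13.4% were called higher and 16.4% lower. For 9 members a change within 1 slide was above -0.5, and 8 of those 9 were dim. Krt13, an epithelial keratin, read -1.01 and -4.20 in untreated cells, -4.39 and -3.76 at 2 h, and -3.67 and -4.56 at 4 h. Within slide 1 its change was -3.38 at 2 h and -2.66 at 4 h, and within slide 2 it was 0.44 and -0.36. Tac2, a tachykinin precursor, behaved likewise on the other slide, with untreated arrays at -3.50 and -1.47, and Eps8l2, an actin regulator, read -3.6 and -1.72. Grap, an adaptor related to Grb2, met the rule through an untreated spot that carried an outlier flag, and with that spot left out its change was 0.09 at both times. With normexp background correction, 26 of the 35 bright members still met the thresholds, as did 7 of the 31 between and 0 of the 33 dim ones, whose medians became -0.54 and -0.15.

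**Figure D5:**
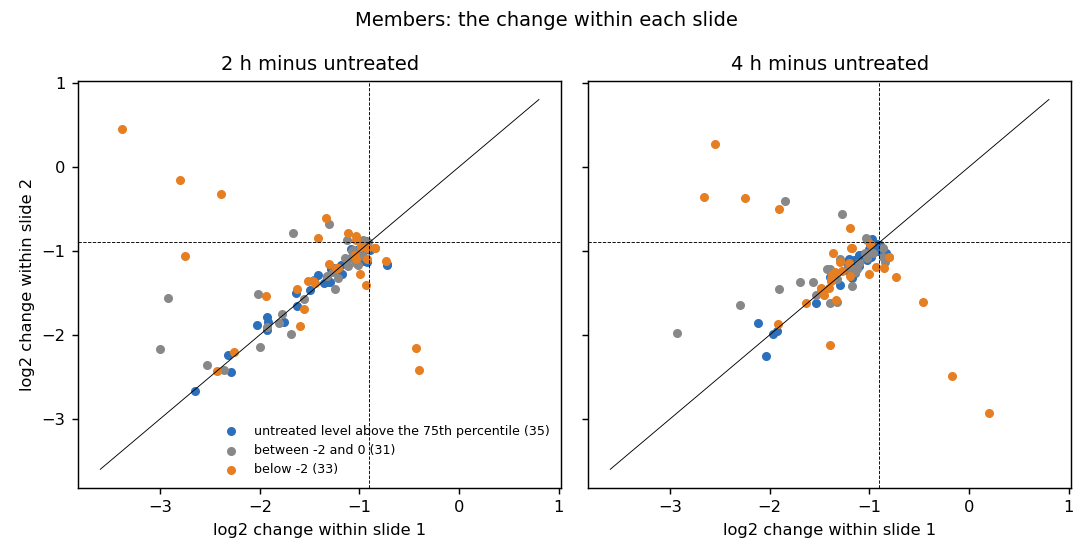
Log2 change within slide 1 (horizontal axis) against that within slide 2 (vertical axis) for the members, at 2 h on the left and 4 h on the right; colour gives the mean untreated level, and the diagonal is equality. Bright members lie close to the diagonal and the points far from it are mostly dim; Grap has no slide 2 value, because its flagged untreated spot was left out.

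Gene structure and promoter letters, which the rule did not use, were compared with those of other genes well above background on all 6 arrays. The 74 members matched to RefSeq spanned a median of 21.4 kb, beside 22.7 kb for 12480 others, and 4 members (5.41%) exceeded 100 kb beside 12.9%. Promoter windows, from 250 bases before to 50 after the start, held a median of 61.0% G and C in members and 60.7% in others. CCAAT, searched on both strands, was in a window of 31 of 58 members (53.4%), of 42.7% of 9962 others, and of 41.1% of all 27025 genes with a window. GGGCGG, the GC box, was in windows of 69.0% of members, 68.9% of others and 38.2% of all these genes. The TATA box letters TATAAA were in windows of 6.90% of members, 9.36% of others and 15.7% of all these genes. The E2F motif TTCCCGC was in windows of 5.17%, 9.74% and 5.29%, in the same order. The cell cycle homology region TTTGAA was in windows of 15.5%, 14.2% and 20.2%. GTAAACA was in 1 member, Txnip, shown with its letters above, beside 3.13% of others and 4.05% of all these genes. The motifs were picked after the members were known, and no test was made.

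Some members share a promoter region with a gene read the other way. Within 1000 bases of the start, 6 members had a divergent neighbour, and 5 of those neighbours were tested, none a member. Fam229b starts 109 bases from Tube1, and it rose by 0.31 at 2 h (adjusted p = 0.0129) and by 0.21 at 4 h (adjusted p = 0.0313), while Tube1 lost 5.44-fold. With no scaling it read -0.03 and -0.05, and no other scaling or background correction tried gave a call for it. Mrpl27, a mitochondrial ribosomal protein 48 bases from Eme1, rose by 0.33 at 2 h (adjusted p = 0.0462) and read 0.07 at 4 h. That rise was likewise called at no other setting, and the 2 h value with no scaling was -0.005 (adjusted p = 0.964). Rgp1, 129 bases from Gba2, read 0.08 and 0.05 (adjusted p = 0.555 and 0.739), and with no scaling its 2 h value was -0.25 (adjusted p = 0.0475). Mettl8, 138 bases from Dcaf17, read -0.21 at 2 h and fell by 0.94 at 4 h (adjusted p = 0.00236), against 0.24 with normexp (adjusted p = 0.612). Its 2 h value was called lower with quantile normalization, median centring, no scaling and spike-in scaling (-0.37 to -0.60, adjusted p from 0.0118 to 0.0322). Deaf1, 219 bases from Eps8l2, fell by 0.73 at 2 h (adjusted p = 0.00599) and read -0.08 at 4 h, or -0.34 with no scaling (adjusted p = 0.0398). With no scaling 33.1% of all genes were called lower at 2 h and 31.7% at 4 h.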

How the data were processed

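RNA of 6 cultures was hybridised to one-colour Agilent arrays. Per the file headers, the authors scanned with a G2505B scanner and used Feature Extraction 9.5.3.1 with protocol GE1-v5_95_Feb07. The deposited files hold fluorescence intensity for each spot, and the processed signal used here is background-corrected. The log2 values were computed here from the deposited intensity: the array's 75th percentile over 43379 non-control spots was subtracted and spots of a probe were averaged. Outlier-flagged spots were left out of the fit, whereas the rule kept them. Of 27962 gene names, 17336 had a probe that rose well above background in at least 1 group, on each of its arrays. These were tested with limma 3.58.1 (R 4.3.3) in a joint fit of the 3 groups, with Benjamini-Hochberg adjustment, and a call is an adjusted p under 0.05. The script was tested on simulated data.

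The members and gene lists were chosen with earlier results of these data known, and roles and motifs after the members were seen. Genes were named by accession (58 members), symbol (11) or older symbol (5) in a RefSeq table (GRCm38.p6), and 25 kept the file's name. Values on every array are given for the 16 members with a symbol and the lowest mean change, for up to 8 with the largest called rise and up to 8 with the largest called fall from 2 h to 4 h, and for members of the lists; of each list up to 3 other genes with a large called change are named. Replicate numbers mark the slide: deviations from group means correlated at 0.25, 0.19 and 0.24 between same-numbered arrays, so the numbers pair the samples. The main fit did not use this pairing. With the slide as a block, 6891 genes were called between 4 h and 2 h, beside 5169 in the main fit. Alternatives were other scalings, normexp (offset 50), filters on dim probes, the mean of a gene's probes, the slide as a block, single slides, other thresholds and each array left out. The number of arrays limits the precision. Some results are not reported here.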

Additional observations from a re-analysis of the deposited data

Results flagged for a closer look

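Members whose response differed between 2 h and 4 h, by the test of 4 h against 2 h, were flagged: 24 were higher at 4 h and 9 were lower (limma, Benjamini-Hochberg adjusted). The rule had capped both of the values that this test compares. Among those followed on every array, the log2 difference, 4 h minus 2 h, was 1.66 for Txnip, 1.23 for Zmym1, 1.12 for Spry1, 0.91 for Tube1, 0.79 for Id4, 0.61 for Nedd9, 0.60 for Cdc42ep3, 0.54 for Mterf2, 0.54 for Nuak1 and 0.50 for Haspin. It was -0.99 for Apol6, -0.59 for Depdc1b, -0.51 for Ccdc116, -0.41 for Lmcd1, -0.34 for Soga1, -0.30 for Ankrd1 and -0.28 for Vstm5. Groups of 2 arrays were too small for a test of single outlying arrays.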

How the results depend on the processing

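The count of 99 members was 214 with median centring, 340 with no scaling, 375 with spike-in scaling and 35 with normexp. It was 216 when being well above background in 1 whole group was enough, 426 with no filter on dim probes, 150 and 64 at thresholds of -0.8 and -1, 65 when each slide had to meet it (chosen after seeing the data), and 94 to 122 with an array left out. The median change of all genes at 2 h moved from 0.12 to -0.09 with median centring, -0.22 with no scaling and -0.28 with spike-in scaling. At 4 h it moved from 0.07 to -0.11, -0.19 and -0.18, and to 0.18 with normexp. Genes called at 2 h numbered 6763, and 1553 with normexp, 4045 with no filter on dim probes and 3607 to 6134 with an array left out. At 4 h the 7448 calls became 2350, 4548 and 4349 to 6158. Between 4 h and 2 h the 5169 calls became 1020, 2504 and 2383 to 4224, and 2844 with spike-in scaling.

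Members called higher at 4 h than at 2 h (24) numbered 6 with normexp, 14 with no filter on dim probes and 14 to 19 with an array left out. Members called lower (9) numbered 1 with no scaling, 1 with spike-in scaling and 1 with normexp. They numbered 3 with no filter, 5 in a fit of the 2 groups alone and fewer than 9 with an array left out. Over all genes the 2848 lower calls became, in the same order, 1597, 805, 242, 1084 and 2193. These too were fewer with an array left out. With the replicate block for the slide 15 members were lower, 8 of them among the 9, beside 23.2% of all genes. In the pairing of arrays by slide the block changed 2 other calls among the 31 named members, Hoxa2 and Smad6. Signs turned for Ints6l between 4 h and 2 h (0.73 with the mean of its probes), Ccdc116 and Vstm5 (0.31 and 0.35 with normexp), and Krt13 at 2 h (0.44 within slide 2, and -3.06 to 0.13 with an array left out) and at 4 h (-3.11 to 0.084 with an array left out). The cause of these shifts was not tested. With normexp 90 of 99 members lay below 0 at both times, and the 33 members on dim probes, with an untreated level below -2, limit what can be read.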
